A study of Mus musculus with 6 samples.

Results

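Serpinb1a, Wfdc2, Hpgd, Cyp4f14 and Tlcd2 were higher in the I1 line than in the M1 line, and Pdpn, Chrna1, Prkd1, Sox11 and Foxj1 were higher in M1 than in I1. These 10 genes, of 18193 tested, have 18 of the 34945 probe sets that name 1 gene. They were selected for strong differences between the I1 and M1 arrays, so each difference between I1 and M1 is a description here and was given no test. I1 and M1 are mouse hepatocellular carcinoma lines derived from the parent line BL185 by selection of subpopulations that migrated, and the titles call each a subclone. BL185 itself was not selected, and a subclone taken without selection for migration was not among the samples, so selection and subcloning cannot be told apart. All 3 lines were grown in DMEM with serum. RNA of each line was hybridised to 2 Affymetrix arrays, 6 in all, and no label says that a line's arrays stem from different cultures, so the p-values measure a spread between arrays that may be technical.

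The genes fall into functional classes that have little in common. Serpinb1a and Wfdc2 encode protease inhibitors: serpins of clade B trap serine proteases inside the cell, and proteins with a whey acidic protein core, to which Wfdc2 belongs, are small and secreted. Hpgd and Cyp4f14 encode enzymes that inactivate lipid mediators, the first oxidising prostaglandins and the second hydroxylating leukotrienes in mouse liver. Pdpn is a mucin-type surface glycoprotein, known as a ligand of a platelet receptor and for linking the membrane to the actin cytoskeleton through ezrin-type proteins. Chrna1 is a subunit of the nicotinic acetylcholine receptor of muscle, and Prkd1 a kinase activated by diacylglycerol. Sox11 and Foxj1 are transcription factors, the first of developing neurons and other progenitors and the second of motile cilia. Tlcd2 is a membrane protein.

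Promoter sequence was in the RefSeq table (build GRCm38.p6) for 8 of the 10 genes, Serpinb1a and Foxj1 being the others. Each window runs from 250 bases before to 50 bases after a start site, and the first one listed was used where a gene had several. Of 9 short motifs searched on both strands, CAGGTG, the E-box variant that factors of the Snail and ZEB families bind, occurred in Wfdc2, Hpgd, Pdpn and Chrna1, 4 of the 8, and in 20% of 27025 promoters. These 4 are shown because both directions of difference are among them, Wfdc2 and Hpgd being higher in I1 and Pdpn and Chrna1 higher in M1. Capitals mark CAGGTG or its reverse complement, and all sequences run 5′ to 3′ on the gene's own strand.
Wfdc2, chr2:164562465-164562764, plus strand: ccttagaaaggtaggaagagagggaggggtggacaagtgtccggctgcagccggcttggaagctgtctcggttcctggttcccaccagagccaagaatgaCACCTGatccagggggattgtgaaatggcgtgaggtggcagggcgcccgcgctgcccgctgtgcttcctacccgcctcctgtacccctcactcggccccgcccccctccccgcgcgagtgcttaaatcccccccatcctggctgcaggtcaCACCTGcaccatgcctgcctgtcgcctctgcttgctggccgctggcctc
Hpgd, chr8:56294302-56294601, plus strand: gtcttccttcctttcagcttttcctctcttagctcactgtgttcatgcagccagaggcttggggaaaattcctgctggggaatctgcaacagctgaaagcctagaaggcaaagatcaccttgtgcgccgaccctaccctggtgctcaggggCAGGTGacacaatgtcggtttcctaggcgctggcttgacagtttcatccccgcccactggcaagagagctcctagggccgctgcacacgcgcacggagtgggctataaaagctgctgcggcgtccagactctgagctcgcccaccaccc
Pdpn, chr4:143299515-143299814, minus strand: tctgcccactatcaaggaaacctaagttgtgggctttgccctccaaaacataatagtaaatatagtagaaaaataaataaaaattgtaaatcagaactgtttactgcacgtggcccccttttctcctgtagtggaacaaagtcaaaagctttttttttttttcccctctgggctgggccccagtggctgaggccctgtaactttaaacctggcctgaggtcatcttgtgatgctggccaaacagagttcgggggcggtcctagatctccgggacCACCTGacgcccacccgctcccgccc
Chrna1, chr2:73580289-73580588, minus strand: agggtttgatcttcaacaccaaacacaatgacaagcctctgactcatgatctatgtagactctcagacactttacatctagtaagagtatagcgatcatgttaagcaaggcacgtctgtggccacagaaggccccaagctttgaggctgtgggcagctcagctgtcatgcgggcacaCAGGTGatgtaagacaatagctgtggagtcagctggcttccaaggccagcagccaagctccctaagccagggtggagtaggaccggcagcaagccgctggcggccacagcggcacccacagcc

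In Wfdc2 the motif occurred 2 times, and in Hpgd, Pdpn and Chrna1 1 time each. The wider E-box CANNTG, which contains every CAGGTG, was in 6 of the 8 promoters and in 72.1% of all. GGGCGG, the core of GC boxes, was in 5 and in 35.9% of all, and CCAAT in 3 and in 37.9% of all. TATAAA was in Hpgd, TGANTCA in Chrna1, and GTAAACA and ACAAAG in Pdpn, against 14.2%, 7.93%, 3.55% and 18.7% of all. GGAATG was in 0 of the 8 and in 14.6% of all. A match is a run of letters, and binding was not measured.

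The arrays set limits on what follows. Signals are log2 values per probe set, with array medians between 7.87 and 8.11, and a signal near or below that range may be background, so that the size of a change is then not exact. Over all genes tested, the SD between the 2 arrays of a line was 0.16 in I1, 0.65 in M1 and 0.10 in BL185. M1 replicate 1 stood apart, with an 18S ribosomal RNA signal (3′ probe set) of 12.50 against 10.68 on M1 replicate 2, 11.27 and 11.51 on the I1 arrays and 10.11 and 10.14 on the BL185 arrays. RNA quality was read from Actb as its 3′ less its 5′ signal, which was 1.47 and 1.43 in I1 and 1.43 and 1.24 in M1, against 1.08 and 0.876 in BL185, so both selected lines lay above the parent, and its part in the differences from BL185 was not tested. The values of M1 replicate 1 had an SD of 1.62 over probe sets, against 1.83 to 1.97 on the other arrays. The part of M1 replicate 1 in the results was not tested, and changes in M1 are also given without it. Of the labelled cell type's markers, the liver transcription factor Hnf4a was well above the medians on every array (11.94 to 13.34), while albumin, Alb, was below them in BL185 (7.60 and 7.53) and on M1 replicate 2 (7.66).

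By description, I1 minus M1 was 3.06 for Serpinb1a, 2.96 for Hpgd, 2.62 for Cyp4f14, 2.47 for Wfdc2 and 1.98 for Tlcd2, and it was -2.28 for Pdpn, -1.77 for Sox11, -1.43 for Chrna1, -1.03 for Foxj1 and -0.96 for Prkd1. In size these ranked between 4 and 34 of 18193 genes for those higher in I1, and between 19 and 305 for those higher in M1. Ranked by the limma p of the same contrast, they stood between 3 and 9 and between 5 and 68. The genes were thus not the largest differences alone, and both ranks follow from the choice.

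The question put to each gene was which line had departed from the parent. Each line was compared with BL185 by limma across all 18193 genes, with Benjamini-Hochberg adjusted p-values and a threshold of 0.05. The I1 and M1 arrays in these comparisons are those on which the genes were chosen, and both comparisons share the BL185 arrays, so the calls describe where each difference lies and are not independent of the choice. In M1, 6 of the 10 passed, 3 lower (Serpinb1a, Wfdc2 and Tlcd2) and 3 higher (Pdpn, Chrna1 and Sox11), against 0.879% of all genes tested (0.605% lower and 0.275% higher). With the replicate number as a block, Serpinb1a and Pdpn passed (adjusted p = 0.0471 for both) and Wfdc2, Tlcd2, Chrna1 and Sox11 did not (0.0553 to 0.077). With only the M1 and BL185 arrays in the fit, 0 of these 6 passed (adjusted p from 0.153 to 0.243), and limma called 0 genes in all, with 1682 at an unadjusted p under 0.05. In I1, 1 of the 10 passed, Cyp4f14, which was higher, against 0.511% of all genes (0.192% higher and 0.319% lower). Hpgd, Prkd1 and Foxj1 passed in neither line, and 0 of the 10 passed in both. Between I1 and M1, limma called 0 of 18193 genes (0%), with 409 at an unadjusted p under 0.05. The count was 52 with cyclic loess, 4 with quantile normalization and 2 with array weights.

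**Figure D1:**
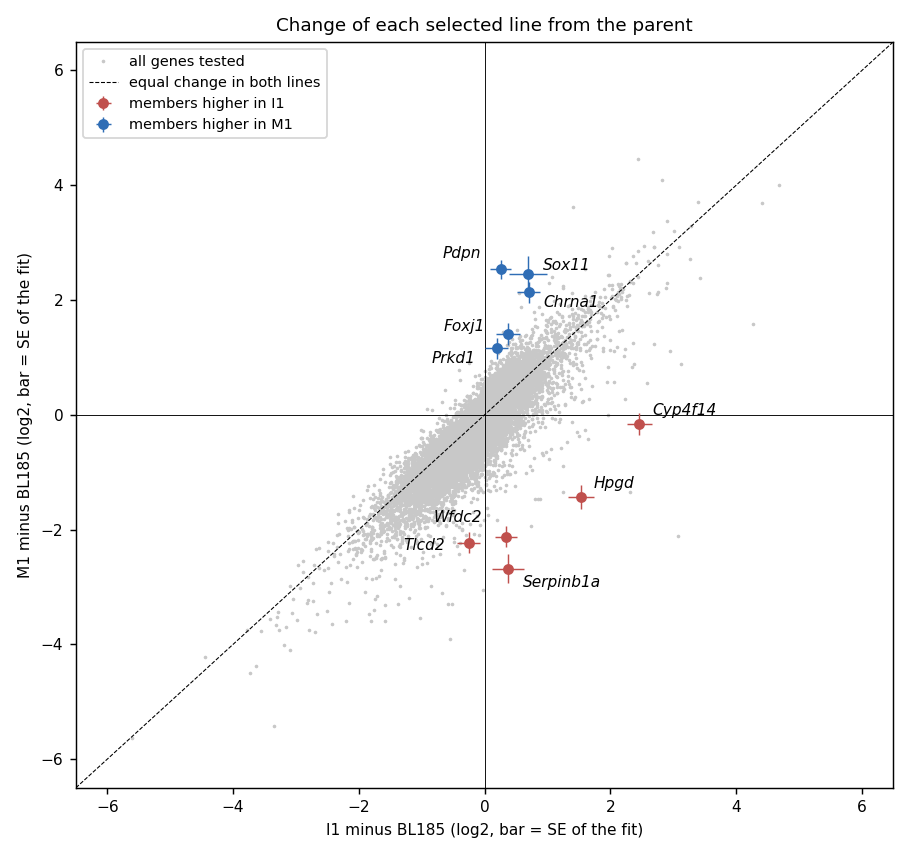
Change of I1 from BL185 (horizontal, log2) against change of M1 from BL185 (vertical, log2) for all genes tested in grey and the 10 genes in colour, with SEs of the fit as bars and equal change as a dashed line. Cyp4f14 lies far out along the I1 axis (2.46 against -0.16 in M1), Hpgd lies off both axes, and the other 8 lie nearer to the M1 axis.

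By distance of the means, M1 was farther from BL185 than I1 in 8 of the 10 genes, all but Cyp4f14 and Hpgd. Among all 246 genes whose I1 and M1 arrays did not overlap and whose means differed by at least 1 log2 unit, M1 was the farther line in 72.8%. Without M1 replicate 1 it was 8 of the 10 and 52.3% of 369 genes. The 246 genes are unlike the 10 in direction, with 228 higher in I1 and 18 in M1, and Prkd1 is not among them, so nothing particular to the 10 is read from these shares. The 2 arrays of each selected line lay outside the range of the BL185 arrays for all 10 genes, which also held for 76.0% of all genes in I1 and 51.9% in M1. The I1 and M1 arrays did not overlap for any of the 10, as the choice implies, and for 16.1% of all genes. The median SD between M1 arrays over the 10 was 0.16, against a median of 0.47 over all genes, and in I1 it was 0.12 against 0.10. The genes were chosen for separation on these same arrays, so the SDs are not independent of the choice. Nothing particular to the 10 is read from them.

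The protease inhibitors were close to the parent in I1 and low in M1. Serpinb1a, the mouse counterpart of an inhibitor of neutrophil elastase and cathepsin G, had log2 signals of 11.43 and 11.96 in I1, 8.47 and 8.81 in M1, and 11.27 and 11.37 in BL185. It fell by 2.68 ± 0.25 (SE) in M1 against BL185, 6.43-fold lower (adjusted p = 0.0254), and its I1 change was 0.37 ± 0.25 (adjusted p = 0.66). Both M1 arrays lay more than 2 log2 units under every other array, and fewer cells with the transcript and less transcript per cell cannot be told apart in such samples. A dimmer Serpinb1a probe set read 9.07 and 9.34 in I1, 8.23 and 7.64 in M1, and 9.05 and 8.79 in BL185, in the same order with smaller gaps.

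Wfdc2, known in humans as a serum marker of ovarian cancer, read 12.50 and 12.45 in I1, 9.89 and 10.12 in M1, and 12.21 and 12.05 in BL185. It fell by 2.13 ± 0.18 in M1 against BL185, 4.36-fold lower (adjusted p = 0.0231). Its I1 change was 0.34 ± 0.18 (adjusted p = 0.574). The groups did not overlap, and all 6 values were well above the array medians, so none of them is near background.

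Tlcd2, a membrane protein with a TLC domain linked to the lipid composition of the plasma membrane, showed the same shape. It read 10.93 and 11.14 in I1, 9.15 and 8.96 in M1, and 11.29 and 11.29 in BL185. It fell by 2.23 ± 0.18 in M1 against BL185, 4.69-fold lower (adjusted p = 0.0218), and its I1 change was -0.25 ± 0.18 (adjusted p = 0.671). It was the gene of the higher-in-I1 set whose I1 mean lay below that of the parent.

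In both enzymes of lipid mediator breakdown the I1 signal was above that of BL185, and the difference passed the test for Cyp4f14. Cyp4f14 read 10.33 and 10.65 in I1, 7.96 and 7.78 in M1, and 8.08 and 7.98 in BL185. It rose by 2.46 ± 0.20 in I1 against BL185, 5.51-fold (adjusted p = 0.0299), while the M1 change was -0.16 ± 0.20 (adjusted p = 0.619). M1 and BL185 both lay at the array medians, so the size of the I1 rise is not exact. The call was lost with the replicate number as a block (adjusted p = 0.0872).

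Hpgd stood between the lines in the parent. It read 9.95 and 10.41 in I1, 7.20 and 7.23 in M1, and 8.64 and 8.66 in BL185. The changes from BL185 were 1.53 ± 0.21 in I1 (adjusted p = 0.0735) and -1.43 ± 0.21 in M1 (adjusted p = 0.0647), so 51.7% of the gap between I1 and M1 lay on the I1 side of BL185 and 48.3% on the M1 side. Neither change passed the test, and the M1 signals were below the array medians. After cyclic loess both passed by limma (adjusted p = 0.0141 in I1 and 0.0104 in M1), where 1582 and 1820 genes did. After quantile normalization both passed (0.0224 and 0.0185), where 980 and 1170 genes did. With a gene's probe sets averaged neither passed (0.155 and 0.312). Its other probe set read 8.72 and 9.0 in I1, 8.94 and 7.59 in M1, and 8.14 and 8.07 in BL185, where I1 and M1 overlapped and M1 replicate 1 was above BL185. The sign of the Hpgd change in M1 thus differed between the probe sets (-1.43 and 0.16). Without M1 replicate 1 both were negative (-1.42 and -0.52), and without M1 replicate 2 they were -1.45 and 0.84.

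**Figure D2:**
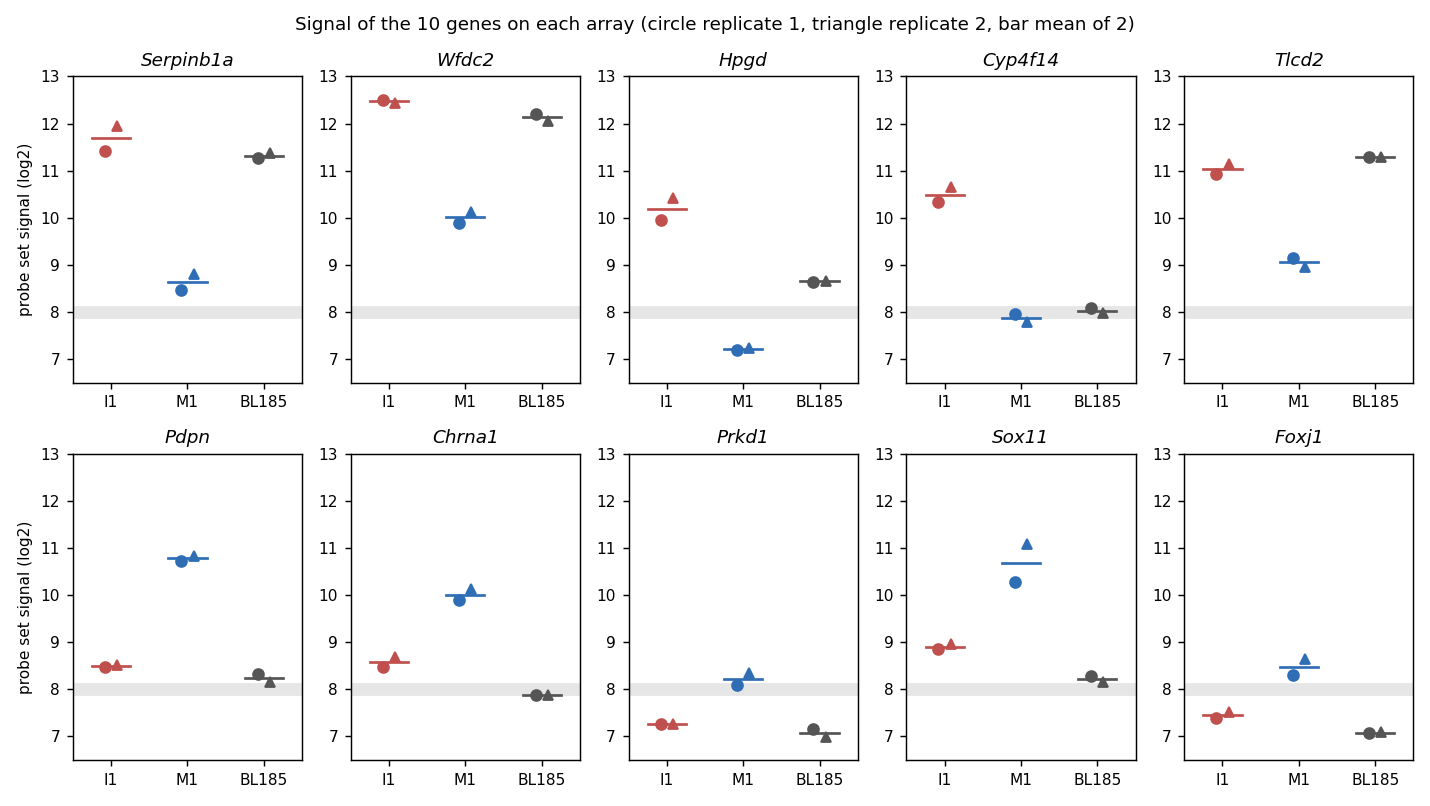
Log2 probe set signal of the 10 genes on each of the 6 arrays, by line, with a circle for replicate 1, a triangle for replicate 2, a bar for the mean of 2 and a grey band for the range of the array medians (7.87 to 8.11). In the upper row M1 is the low line for Serpinb1a, Wfdc2 and Tlcd2, I1 the high line for Cyp4f14, and Hpgd has BL185 in the middle; in the lower row M1 is the high line for all 5.

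The genes higher in M1 began with the surface proteins. Pdpn read 8.47 and 8.52 in I1, 10.73 and 10.83 in M1, and 8.32 and 8.16 in BL185. It rose by 2.54 ± 0.17 in M1 against BL185, 5.80-fold (adjusted p = 0.0153), and its I1 change was 0.26 ± 0.17 (adjusted p = 0.652). The M1 arrays differed by less than 0.1, and no I1 or BL185 array came within 2 log2 units of them.

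Chrna1 read 8.46 and 8.69 in I1, 9.89 and 10.12 in M1, and 7.88 and 7.87 in BL185. It rose by 2.13 ± 0.19 in M1 against BL185, 4.39-fold (adjusted p = 0.0235). The I1 change was 0.70 ± 0.19, in the same direction, and did not pass (adjusted p = 0.234). The order was M1, I1, BL185, and the arrays of the lines did not overlap. The parent lay at the array medians, so the sizes are not exact.

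Prkd1 read 7.27 and 7.26 in I1, 8.10 and 8.35 in M1, and 7.16 and 6.99 in BL185. The M1 change was 1.16 ± 0.18 and missed the threshold (adjusted p = 0.0717), and the I1 change was 0.19 ± 0.18 (adjusted p = 0.726). The I1 and BL185 values were below the array medians. M1 replicate 1 lay at its array median (8.11) and M1 replicate 2 above its own (7.92), so the sizes are not exact. The other Prkd1 probe set read 7.33 and 7.30 in I1, 8.42 and 8.57 in M1, and 6.70 and 6.37 in BL185, again highest in M1, and there the M1 change of 1.96 passed when every probe set was tested by limma (adjusted p = 0.0299).

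The transcription factors were also highest in M1. Sox11 read 8.86 and 8.96 in I1, 10.27 and 11.08 in M1, and 8.28 and 8.15 in BL185. It rose by 2.46 ± 0.30 in M1 against BL185, 5.51-fold (adjusted p = 0.0462), and its I1 change was 0.69 ± 0.30 (adjusted p = 0.48). The M1 arrays lay 0.81 apart, the widest spread in any line among the 10 analysed probe sets, and replicate 2 was the higher.

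Sox11 had 5 further probe sets, and M1 was the highest line on each. On M1 replicate 2 they read 9.45 to 10.73, and on replicate 1 they read 7.81 to 9.42. The I1 arrays read 7.04 to 8.72 and the BL185 arrays 6.79 to 8.63. Their changes in M1 against BL185 ran between 1.11 and 2.25, between 1.39 and 3.21 without M1 replicate 1, and between 0.55 and 1.28 without M1 replicate 2. With every probe set tested by limma 0 of these 5 passed (adjusted p from 0.119 to 0.315), and the probe set analysed had an adjusted p of 0.0506. The direction in M1 was the same on all 6 probe sets, and the call depended on which were tested.

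Foxj1 read 7.38 and 7.51 in I1, 8.31 and 8.65 in M1, and 7.06 and 7.08 in BL185. The M1 change was 1.40 ± 0.19 and missed the threshold (adjusted p = 0.0571), and the I1 change was 0.37 ± 0.19 (adjusted p = 0.568). I1 and BL185 lay under the array medians, and both M1 arrays lay above them, so the sizes are not exact.

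**Figure D3:**
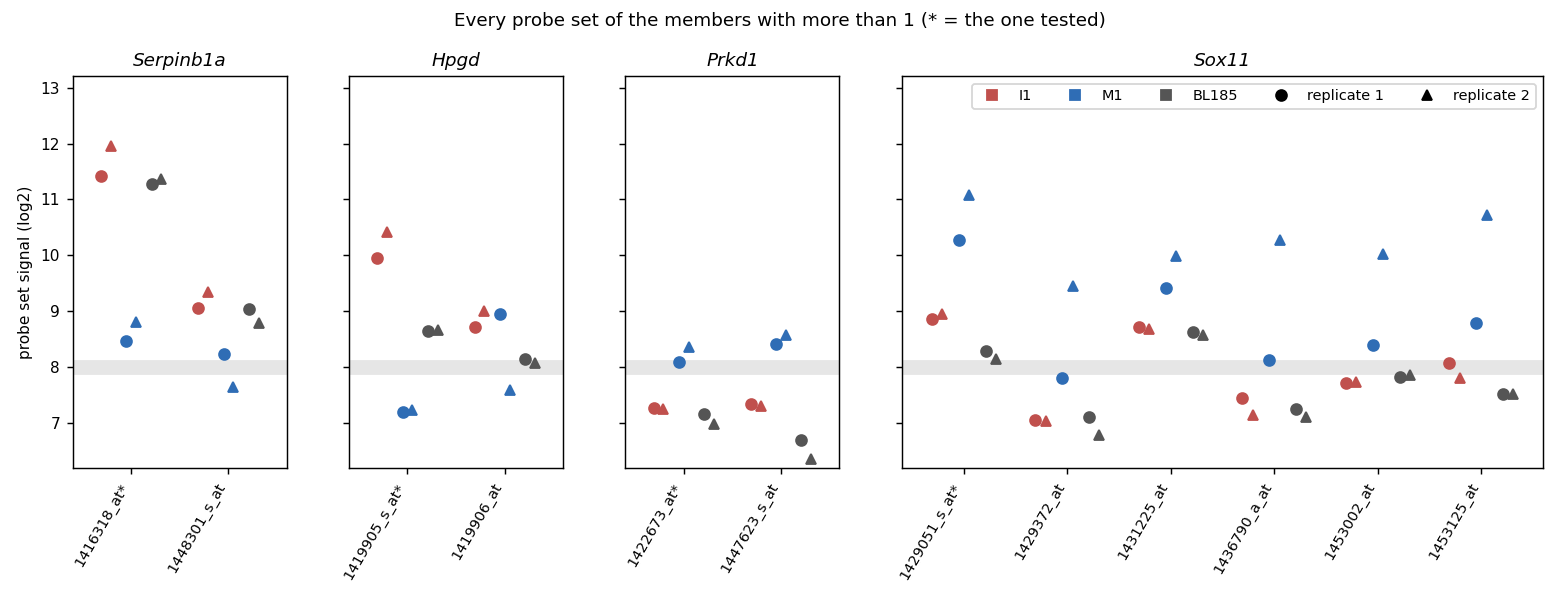
Log2 signal of every probe set of the 4 genes with more than 1, on each array, with lines by colour, replicates by shape, array medians as a grey band and the analysed probe set starred. M1 is highest on all 6 Sox11 probe sets, with replicate 2 above replicate 1 on each, and the second Hpgd probe set is the one on which I1 and M1 overlap.

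Leaving out an M1 array leaves 1 in that line, and its spread is then taken from the I1 and BL185 arrays, which differed less between replicates, so the error is smaller by construction. Without M1 replicate 1, 9 of the 10 passed in M1 against BL185, all but Cyp4f14, where 24.0% of all genes did, and without M1 replicate 2 it was 9 of the 10, where 70.8% did. The M1 changes without replicate 1 were -2.51 for Serpinb1a, -2.01 for Wfdc2, -2.33 for Tlcd2, -1.42 for Hpgd, 2.58 for Pdpn, 2.25 for Chrna1, 2.87 for Sox11, 1.57 for Foxj1 and 1.28 for Prkd1. Without either M1 array, 6 of the 10 passed in I1 against BL185 (Wfdc2, Hpgd, Cyp4f14, Chrna1, Sox11 and Foxj1), where 46.6% of all genes did, which is near the background. Without any 1 of the BL185 or I1 arrays, limma called 0 of the 10 in either line and 0 genes in all, with 806 to 1682 genes at an unadjusted p under 0.05. For the analysed probe sets and for the means over a gene's probe sets, the sign of all 30 changes, 3 for each gene, was the same under every alternative that gave a value. On single further probe sets it turned for Hpgd in M1 (0.16) and for Sox11 in I1 (-0.11) against BL185.

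The other genes of the pathways were counted in lists. In each list 0 genes were called between I1 and M1, as was so for all genes. Among 36 other genes of prostaglandin and leukotriene metabolism, the median I1 minus M1 difference was -0.01, against -0.0021 over all genes tested. Of these, 1 rose in I1 against BL185, the prostaglandin E receptor Ptger3, and 0 passed in M1. Ptger3 read 8.56 and 8.48 in I1, 7.47 and 7.17 in M1, and 6.73 and 6.89 in BL185, a change of 1.70 ± 0.19 in I1 (adjusted p = 0.0471), from a parent signal below the array medians.

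The uncalled list genes and the cell type markers named with their values were chosen after their values were seen. Of 24 other clade B serpins, whey acidic protein inhibitors and neutrophil proteases, 0 passed in either line, with a median I1 minus M1 difference of -0.03. Slpi, a secreted inhibitor of the Wfdc2 family, read 10.48 and 10.32 in I1, 10.64 and 9.84 in M1, and 10.11 and 9.80 in BL185, with M1 overlapping both other lines and I1 above BL185. Of 10 other TLC domain and ceramide synthase genes 0 passed, with a median of 0.28. Tlcd1, the nearest relative of Tlcd2, read 11.04 and 11.01 in I1, 10.11 and 11.19 in M1, and 10.20 and 10.01 in BL185, without the low M1 pair seen for Tlcd2.

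Of 14 podoplanin partners 0 passed, with a median of 0.20. The Pdpn receptor gene Clec1b was below the array medians on all 6 arrays (6.73 to 7.28), and the hyaluronan receptor Cd44 lay between 13.34 and 13.93. Of 24 other nicotinic receptor and neuromuscular synapse genes 0 passed, with a median of -0.07. Of the subunits that join Chrna1 in muscle, Chrnb1 read 8.58 and 8.62 in I1, 8.20 and 9.13 in M1, and 8.58 and 8.39 in BL185. Chrnd read 8.54 and 8.67 in I1, 9.10 and 8.42 in M1, and 8.44 and 8.53 in BL185. Chrnd was thus above the medians throughout, with M1 overlapping both other lines. Chrne was under the medians throughout (7.14 to 7.44). Of 19 other genes around protein kinase D, Hdac4, a histone deacetylase the kinases export from the nucleus, fell in both lines, by 1.87 ± 0.19 in I1 (adjusted p = 0.0388) and by 1.82 ± 0.19 in M1 (adjusted p = 0.0314), and the median I1 minus M1 difference was 0.10.

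Of 18 other SoxC and immature neuron genes, 2 rose in I1 and 0 passed in M1, with a median I1 minus M1 difference of -0.04. Stmn2, a neuronal regulator of microtubules, read 12.45 and 12.79 in I1, 7.76 and 7.10 in M1, and 9.64 and 9.46 in BL185, a wider gap between I1 and M1 than in any of the 10 genes. It rose by 3.07 ± 0.29 in I1 (adjusted p = 0.037), and its M1 change was -2.12 ± 0.29 (adjusted p = 0.0546). Map2, a microtubule-associated protein of dendrites, rose by 2.35 ± 0.26 in I1 (adjusted p = 0.0461). Both stood on the opposite side from Sox11, being highest in I1. Nes and Tead2 had the order of Sox11, M1 above I1 above BL185, without passing. Their M1 changes were 1.70 ± 0.27 and 1.10 ± 0.25 (adjusted p = 0.0715 and 0.147). Tead2 on M1 replicate 1 read 10.74, close to the 10.70 of both I1 arrays. The other SoxC genes did not have this order. Sox4 was below BL185 in both lines, with changes of -1.25 ± 0.31 in M1 and -0.75 ± 0.31 in I1. Sox12 changed by 0.20 ± 0.21 in M1 and 0.34 ± 0.21 in I1. Neither gene passed. I1 minus M1 was above 0 in 8 of the 18, so the list did not run in 1 direction.

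Of 43 other genes of the motile cilia program, 1 rose in M1 and 0 passed in I1, with a median I1 minus M1 difference of -0.09. It was Mns1, a structural protein of sperm flagella and cilia. Mns1 read 8.28 and 8.23 in I1, 8.82 and 8.82 in M1, and 7.10 and 7.04 in BL185, a change of 1.75 ± 0.16 in M1 (adjusted p = 0.0239). The parent signal was below the array medians, so the size is not exact, and both I1 arrays also lay above BL185. The ciliary structural gene Tekt1 read 7.35 and 7.50 in I1, 8.42 and 6.91 in M1, and 6.86 and 6.81 in BL185, so that its M1 arrays fell on both sides of I1. On M1 replicate 2, where Foxj1 was highest, Tekt1 was under the array median. Over the 43 genes, the change from BL185 was above 0 for 37 in M1 and for 35 in I1. The median changes were 0.33 and 0.18, against 0.07 and 0.06 over all genes tested.

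**Figure D4:**
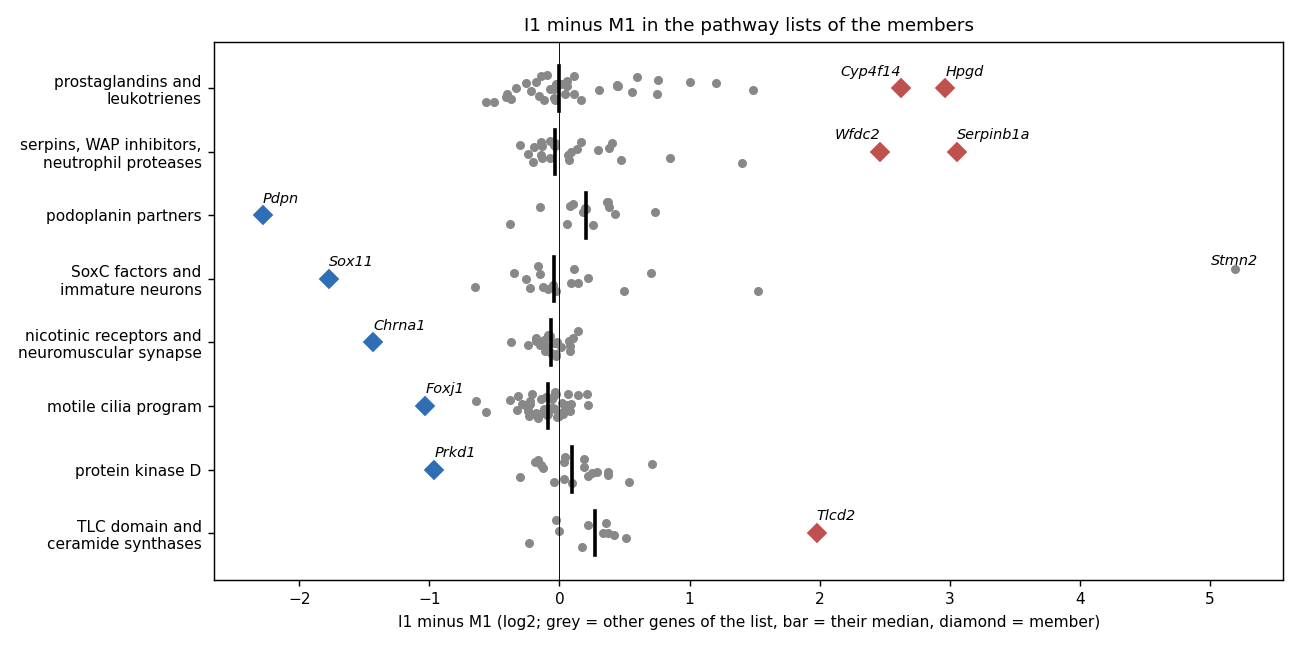
I1 minus M1 difference (log2, horizontal) of the genes in 8 pathway lists, with grey points for the other genes of a list, a bar for their median and diamonds for the chosen genes, which stand at the edges because they were chosen for this difference. The medians of the other genes lie between -0.09 and 0.28, and Stmn2 at 5.19 is the farthest point.

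Markers of other cell types were read beside these genes, as counts above the array median on both arrays of a line and as summed linear signal. Of 7 lymphatic endothelial markers 1 was above in each line, Flt4, and Lyve1 and Prox1 were below on all 6 arrays. Their sum was 1627 to 1697 in I1, 2163 to 2556 in M1 and 1354 to 1364 in BL185. Of 8 ciliated cell markers 1 was above in I1 (Tekt4), 1 in M1 (Foxj1 itself) and 0 in BL185, with sums of 1321 to 1523, 1341 to 2205 and 1003 to 1056. Of 9 muscle markers 3 were above in each line. Chrnd was above on all 6 arrays, and Myod1 and Myog were below on all 6. The muscle sums were 2152 to 2155, 2071 to 2650 and 1830 to 1907. Of 8 neutrophil and leukocyte markers 4 were above in I1, 2 in M1 and 3 in BL185. Elane was above and Ptprc below on all 6 arrays, with sums for the list of 2046 to 2132, 1755 to 2597 and 2271 to 2291. Of 6 mesothelial markers, Pdpn among them, 3 were above in each line, with sums of 48285 to 50975 in I1, 34702 to 42504 in M1 and 46309 to 47960 in BL185. Of 10 fibroblast and stellate cell markers 5 were above in I1, 4 in M1 and 4 in BL185, with sums of 3318 to 3505, 3000 to 4118 and 2601 to 2788. Of 11 hepatocyte markers 9 were above in I1, 7 in M1 and 8 in BL185, with sums of 14438 to 19280, 10638 to 16184 and 11915 to 13849, and of 6 cholangiocyte markers 5, 3 and 5, with sums of 38445 to 39653, 28173 to 31822 and 40248 to 41666. Of the cholangiocyte markers, the surface protein Prom1 fell in both lines, with changes of -2.74 ± 0.21 in I1 (adjusted p = 0.0291) and -2.93 ± 0.21 in M1 (adjusted p = 0.0168), and the transcription factor Sox9 fell in M1 by 2.06 ± 0.23 (adjusted p = 0.0343). In M1 the hepatocyte marker Fgb, a fibrinogen chain, and the leukocyte marker Cd53 also fell, with changes of -1.78 ± 0.22 and -1.66 ± 0.21 (adjusted p = 0.0469 for both). The part of other cell types in the differences was not tested.

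Genes of like pattern were sought over the 6 arrays among 1571 genes with a range of at least 2 log2 units. The 6 arrays share lines and preparation, so Pearson's r is a description. Serpinb1a and Wfdc2 had the same nearest gene, Calml4, a calmodulin-like protein (r = 0.984 and 0.983), which fell by 3.05 in M1 (adjusted p = 0.0313) with an I1 change of -0.02 (adjusted p = 0.98). Tlcd2 was nearest to the zinc importer Slc39a4 (r = 0.990), Hpgd to Stmn2 (r = 0.989) and Cyp4f14 to the membrane protein Tmem45a (r = 0.989).

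Chrna1, Sox11 and Foxj1 shared a nearest gene, the Wnt ligand Wnt10a (r = 0.985, 0.993 and 0.987). Its mean log2 signal was 10.10 in I1, 12.31 in M1 and 8.69 in BL185. It rose by 3.63 in M1 (adjusted p = 0.0357), with an I1 change of 1.41 (adjusted p = 0.261). Prkd1 and Pdpn were nearest to Ramp1, a receptor activity-modifying protein (r = 0.974 and 0.942), and 0 of the 1571 genes reached an r of 0.95 with Pdpn.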

How the data were processed

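RNA of the lines I1, M1 and BL185 was hybridised to 6 Affymetrix arrays. The authors deposited log2 values, 1 per probe set and array, made with RMA and the affy package, per the submitters' processing notes. For versions and settings, the sources used here give nothing. The columns differ in SD, so they were not quantile normalized at the probe set level, and precision is limited by having 2 arrays a line. Of 45101 probe sets, 34945 named 1 gene, 932 several and 9160 none, and 64 were controls. Of the first, 34741 matched a RefSeq table by Entrez identifier. The probe set with the highest mean stood for each of 18193 genes.

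One model with a mean for each line was fitted with limma 3.58.1 (R 4.3.3), with 3 residual and 2.27 prior degrees of freedom, followed by eBayes and Benjamini-Hochberg adjustment per contrast at 0.05. The script was tested on simulated data. Summaries used Python 3.11.15. Groups and replicate numbers came from titles. The members and lists were chosen with earlier results of these data known. The rule for named genes took the 10, up to 3 called genes per list and the nearest gene in pattern. Uncalled list genes and cell type markers were named outside it, after their values were seen. Alternatives were other normalizations, probe set rules, filters, blocks, weights and left-out arrays. Same-numbered arrays deviated together at r = 0.37 between I1 and M1, 0.16 between I1 and BL185 and -0.13 between M1 and BL185, so the numbers were not taken to pair the arrays.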

Additional observations from a re-analysis of the deposited data

Results flagged for a closer look

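Serpinb1a, Wfdc2, Hpgd and Cyp4f14 had both I1 arrays above and both M1 arrays below the 2 BL185 arrays. Over all genes tested, the 2 I1 arrays lay outside the BL185 range for 76.0%, and the 2 M1 arrays for 51.9%. The share of all genes with I1 and M1 on opposite sides was not counted. The changes from BL185 were 0.3727 in I1 and -2.6838 in M1 for Serpinb1a, and 0.3418 in I1 and -2.1253 in M1 for Wfdc2. They were 1.5315 in I1 and -1.4332 in M1 for Hpgd, and 2.4616 in I1 and -0.1628 in M1 for Cyp4f14. By limma, the I1 changes of Serpinb1a and Wfdc2 did not pass (adjusted p = 0.66 and 0.574). Nor did the M1 change of Cyp4f14 (adjusted p = 0.619) or either change of Hpgd (0.0735 in I1 and 0.0647 in M1). On the other Hpgd probe set, M1 replicate 1 lay above BL185 (8.94 against 8.14 and 8.07). The difference between the lines was not tested, since the genes were chosen for it.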

How the results depend on the processing

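On the analysed probe sets and the means over a gene's probe sets, all 10 genes kept the sign of each of their 3 differences under every alternative that gave a value. On single further probe sets, Hpgd in M1 (0.16) and Sox11 in I1 (-0.11) had the opposite sign. A minimum mean log2 of 8 removed Prkd1 and Foxj1. In I1 against BL185, where 93 genes were called (35 higher and 58 lower), the count was 1582 after cyclic loess (766 and 816), 980 after quantile normalization (579 and 401), 172 with every probe set (47 and 125), 8481 with only the 2 lines' arrays, 8551 with array weights, and 0 to 8481 with an array left out. In M1 against BL185, where 160 were called (50 and 110), it was 1820 after loess (838 and 982), 1170 after quantile normalization (616 and 554), 338 with probe sets averaged per gene, 243 with every probe set, 0 with only the 2 lines' arrays, 312 with array weights, and 0 to 12879 with an array left out. Between I1 and M1, with 0 called, it was 52 after loess, 4 after quantile normalization, 1 with a minimum mean of 8, 2 with array weights, and 0 to 10365 with an array left out. Of the 10 genes, 1 was called in I1, against 2 after loess, 2 after quantile normalization, 6 with only the 2 lines' arrays, 7 with array weights, and 0 to 6 with an array left out. In M1 6 were called, against 0 with only the 2 lines' arrays and 0 to 9 with an array left out. With the replicate number as a block, 1 gene was called in I1 and 38 in M1, with 0 (Cyp4f14 lost) and 2 (Serpinb1a and Pdpn) of the 10 genes. A further block crossed the numbers of M1 and BL185 and was fitted to the arrays of these 2 lines only, a setting chosen after seeing the data. There 937 genes were called in M1, with 7 of the 10, against 0 for the same arrays without a block. The cause of these shifts was not tested.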

Other observations

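Flt4, the receptor for a lymphatic growth factor, followed the order of Pdpn without passing the test. It read 9.64 and 9.62 in I1, 10.13 and 10.76 in M1, and 9.07 and 9.05 in BL185. The M1 change was 1.38 ± 0.25 (SE, limma adjusted p = 0.0926) and the I1 change 0.56 ± 0.25 (adjusted p = 0.496). Among the 7 lymphatic endothelial markers Flt4 had the highest M1 change, and the median of the 7 was 0.16. Flt4 was chosen after its values were seen.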
